A study of Mus musculus with 9 samples.

Results

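The immunoglobulin constant genes encode the parts of an antibody's heavy and light chains that do not vary with antigen. They were followed here by symbol, and 9 of the 10 genes looked for were found among the 30579 genes of the expression table: the heavy-chain genes Ighm, Ighd, Ighg3, Ighg2b, Ighg2c and Igha, the kappa gene Igkc and the lambda genes Iglc1 and Iglc2. Ighg1 was not analysed here. RNA was sequenced from mesenchymal stromal cells, which form the supporting tissue of the marrow, after flow sorting of mouse long bones, in 3 groups of 3 libraries. The libraries labelled aged Thbs1 knockout and the aged controls came from mice of 18 months, and the young controls from mice of 3 months. All mice had received an antibody against VE-cadherin by retro-orbital injection 10 minutes before they were killed. The sources used here name no strain, knockout allele or sort gate, and do not say that the libraries of one group are from different mice. P-values therefore cover the spread between these libraries alone, which may be technical. The study set the labelled-knockout libraries against controls of both ages. The constant genes were chosen by their FPKM levels in these same 9 libraries, so their levels and shares are given as a description, with no test.

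A B cell joins a variable segment to the mu and delta constant genes first, and can later switch the same variable region to a gamma, epsilon or alpha constant gene, which gives IgG, IgE or IgA. Each cell keeps either kappa or lambda as its light chain, and kappa is by far the commoner in mice. Plasma cells, which end this line, secrete antibody and live long in the marrow, where stromal cells that make Cxcl12 hold them. Mesenchymal stromal cells are not known as a source of antibody.

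On GRCm38 the heavy-chain constant genes lie on the minus strand of chromosome 12 within 168 kb, from Ighm at chr12:113418558-113422730 through Ighd, Ighg3, Ighg2b, Ighg2c and Ighe to Igha at chr12:113254830-113260236. Igkc is a single exon at chr6:70726435-70726966 on the plus strand, and the lambda genes lie on the minus strand of chromosome 16. Several of these genes are close copies. Which copy a read was given to bears on the values of Iglc2 and Iglc3 below, and less on those of Ighg2b and Ighg2c. The stretches below are the first bases of the first constant exon in GENCODE M21 (GRCm38), 5′ to 3′ on the coding strand, and capitals mark the bases that are not the same in all genes of the set. The lambda genes, with Iglc3 shown as the copy nearest to Iglc2, differ at 21 of 90 bases:
Iglc1: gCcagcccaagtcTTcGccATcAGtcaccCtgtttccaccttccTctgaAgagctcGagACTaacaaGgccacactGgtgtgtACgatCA
Iglc2: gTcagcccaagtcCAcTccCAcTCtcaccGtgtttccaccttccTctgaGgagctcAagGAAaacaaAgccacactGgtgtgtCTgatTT
Iglc3: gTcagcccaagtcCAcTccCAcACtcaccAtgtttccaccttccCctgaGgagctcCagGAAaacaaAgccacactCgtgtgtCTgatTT
They span chr16:19061982-19062071 for Iglc1, chr16:19198763-19198852 for Iglc2 and chr16:19065592-19065681 for Iglc3. The gamma genes differ at 20 of 90 bases:
Ighg2b: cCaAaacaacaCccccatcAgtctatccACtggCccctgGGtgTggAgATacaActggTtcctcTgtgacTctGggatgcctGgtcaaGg
Ighg2c: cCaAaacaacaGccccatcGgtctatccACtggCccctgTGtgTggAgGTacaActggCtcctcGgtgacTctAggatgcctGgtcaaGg
Ighg3: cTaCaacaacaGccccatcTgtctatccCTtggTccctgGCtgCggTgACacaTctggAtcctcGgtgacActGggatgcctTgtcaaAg
They span chr12:113307844-113307933 for Ighg2b, chr12:113288843-113288932 for Ighg2c and chr12:113361143-113361232 for Ighg3. Over the aligned short transcripts, Iglc2 and Iglc3 were identical at 95.4% of bases, and 10.5% of the 50-base windows of Iglc2 occurred in Iglc3. Ighg2b and Ighg2c were identical at 86.4% of bases, and 5.26% of the windows of Ighg2b occurred in Ighg2c. No such window was shared between Iglc1 and either Iglc2 or Iglc3, or between Ighg3 and either Ighg2b or Ighg2c. How reads that match more than 1 place were counted is not known from the sources used here, so the split of reads between Iglc2 and Iglc3, and to a lesser degree between Ighg2b and Ighg2c, is uncertain.

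The values are FPKM, fragments counted on a gene, divided by its length in kilobases and by the library's total. The steps between low values put 17.8 to 27.5 M reads (M, mega) behind each library, and 3 reads on a 2 kb gene came to 0.0546 to 0.0844 FPKM. Replicate 2 of the labelled knockouts stood apart: it had the fewest genes above 0, 13503, and correlated with the others at 0.738 to 0.811 across genes, against 0.773 to 0.987 between the others. Thbs1 did not mark the libraries labelled knockout, at 24.28, 44.55 and 37.05 FPKM there against 35.56, 41.89 and 36.85 FPKM in aged controls (log2 difference -0.15, SE 0.26, limma adjusted p = 0.801). It stood at 74.98, 73.11 and 58.03 FPKM in young controls. Every direction below that involves the labelled knockouts therefore goes by their labels alone. The marrow stromal markers, Cxcl12 and Lepr among them, were above 0 in every library, and their summed level was 8149 to 10024 FPKM in labelled knockouts, 4419 to 6394 FPKM in aged controls and 9951 to 10137 FPKM in young controls.

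Igkc, the constant region of kappa light chains, was the most abundant gene of the table in all 3 aged controls and in labelled knockouts 2 and 3. It had 1057.56, 235332.50 and 19821.37 FPKM in labelled knockouts, 173226.80, 32970.31 and 210878.30 FPKM in aged controls, and 34.83, 81.63 and 1476.77 FPKM in young controls. Every aged control was above every young control, while the labelled knockouts ran from below the highest young control to above the highest aged control. Labelled knockout 1 ranked Igkc 34th among its genes, and the young controls ranked it 1442nd, 556th and 22nd. The 9 constant genes together took an estimated 0.123%, 19.8% and 2.11% of the reads in labelled knockouts, 18.9%, 3.6% and 24.5% in aged controls, and 0.00316%, 0.00908% and 0.134% in young controls. In RNA from a bulk sort, fewer cells of a type and less RNA per cell cannot be told apart.

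**Figure D1:**
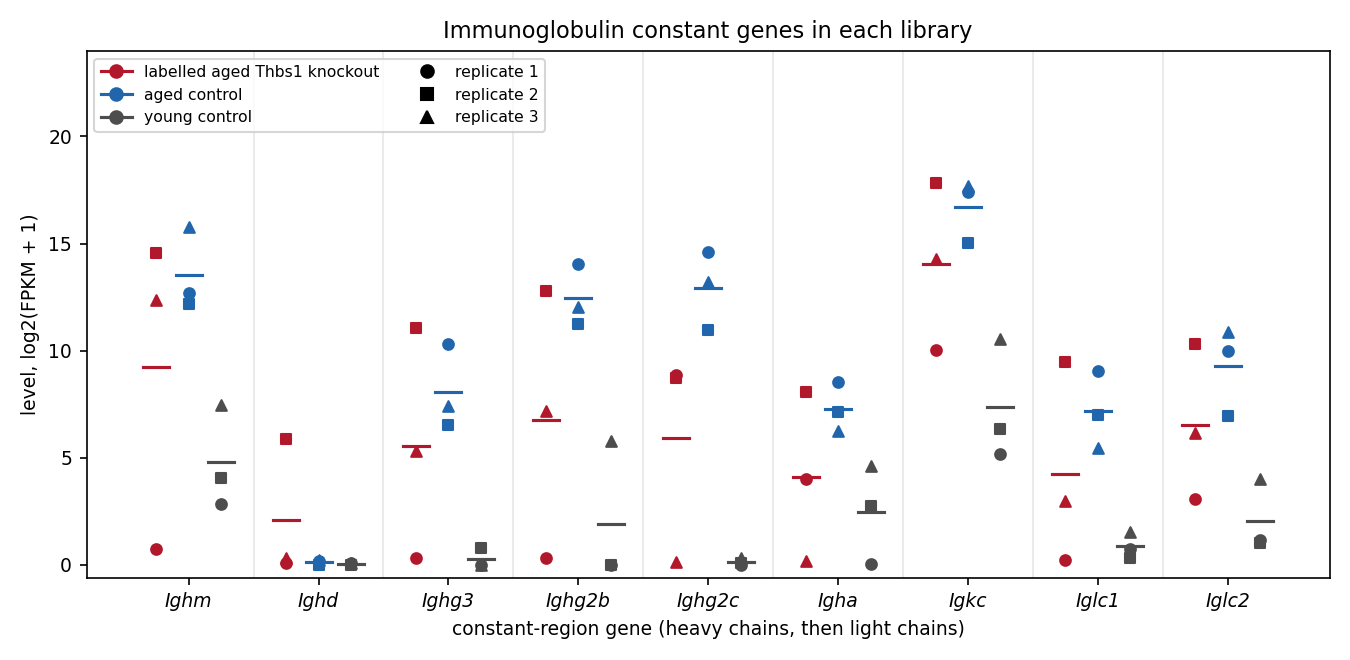
Level of each constant gene as log2(FPKM + 1) in each library, with colour for the group, shape for the replicate number and a bar at the group mean (n = 3). The 3 aged controls lie above the 3 young controls for every gene but Ighd, and the labelled knockouts spread widest, with Ighm between 0.67 and 24354.30 FPKM.

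Ighm, the mu chain of IgM and the first constant gene a B cell uses, had 0.67, 24354.30 and 5295.31 FPKM in labelled knockouts, 6606.59, 4623.89 and 56775.16 FPKM in aged controls, and 6.25, 15.74 and 178.74 FPKM in young controls. Labelled knockout 1 was thus below all 3 young controls, although its Igkc was above that of young controls 1 and 2. Ighd, the delta chain of the IgD that naive B cells carry, had 57.02 FPKM in labelled knockout 2, an estimated 1974 reads. In the other 8 libraries Ighd lay between 0.00 and 0.27 FPKM, at most an estimated 11 reads.

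Ighg2c, the gamma chain of IgG2c, which strains such as C57BL/6 carry in place of IgG2a, had 466.10, 417.76 and 0.11 FPKM in labelled knockouts, 25221.34, 1991.27 and 9351.56 FPKM in aged controls, and 0.00, 0.08 and 0.27 FPKM in young controls. It was the only one of the 9 genes whose labelled-knockout libraries all lay below all aged controls. Ighg2b, which gives IgG2b, had 0.24, 6971.54 and 146.91 FPKM in labelled knockouts, 17099.92, 2392.64 and 4202.36 FPKM in aged controls, and 0.00, 0.00 and 53.94 FPKM in young controls. The labelled knockouts overlapped both other groups. Ighg3, which gives IgG3, had 0.24, 2129.48 and 38.66 FPKM in labelled knockouts, 1277.13, 91.56 and 171.60 FPKM in aged controls, and 0.00, 0.72 and 0.00 FPKM in young controls. Its highest library was labelled knockout 2, and its labelled-knockout mean of 723 ± 1218 FPKM was above the aged mean of 513 ± 663 FPKM (SD, n = 3 each), while the mean on the log2 scale was lower by less than the spread.

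Igha, the alpha chain of the IgA made for mucosal surfaces, had 15.30, 267.20 and 0.14 FPKM in labelled knockouts, 366.92, 138.14 and 75.88 FPKM in aged controls, and 0.04, 5.64 and 23.53 FPKM in young controls. The aged controls stood above the young controls, with the narrowest gap of the 8 genes that separated these groups. By FPKM, Iglc2 was the higher of these lambda genes in 8 of the 9 libraries. It had 7.56, 1274.47 and 70.59 FPKM in labelled knockouts, 1007.32, 122.24 and 1878.76 FPKM in aged controls, and 1.25, 1.01 and 15.36 FPKM in young controls. Iglc1 had 0.17, 703.93 and 6.97 FPKM in labelled knockouts, 525.79, 128.13 and 43.36 FPKM in aged controls, and 0.67, 0.25 and 1.91 FPKM in young controls.

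The aged controls stood above the young controls without overlap for all 8 constant genes that passed the filter on low values, against 7.02% of the 11988 genes tested. Their log2 differences, aged minus young, ran from 4.83 for Igha through 6.31 for Iglc1, 7.20 for Iglc2, 7.83 for Ighg3, 8.75 for Ighm, 9.35 for Igkc and 10.51 for Ighg2b to 12.77 for Ighg2c. Ighd, above 1 FPKM in 1 library alone, was not tested. The filter asked for 1 FPKM in at least 3 libraries. Igkc, Ighm and Iglc2 were at 1 FPKM or more in all 3 young controls, while Ighg2c and Ighg3 were under it in all 3 and passed the filter through libraries of older mice alone. Since these levels chose the genes, nothing is read from the count.

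In labelled knockouts against aged controls, which are the same aged libraries again, the log2 differences ran from -7.02 for Ighg2c and -5.68 for Ighg2b through -4.33 for Ighm, -3.21 for Igha, -2.95 for Iglc1, -2.74 for Iglc2 and -2.64 for Igkc to -2.54 for Ighg3. The groups overlapped for 7 of these 8 genes, and 1 lay lower without overlap, where 6.54% of all genes tested did. Nothing is read from this count either. Without labelled knockout 1 the difference of Ighg3 was 0.09, above 0, and that of Ighm was -0.08. Labelled knockouts against young controls gave log2 differences of 1.63 for Igha to 6.70 for Igkc, with overlap for all 8 genes. In that comparison 4.08% of all genes lay higher without overlap. Without labelled knockout 2 the difference of Igha was -0.36.

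Isotype usage, the share of each gene in the summed heavy-chain constant FPKM of a library, varied widely between libraries of the same group. Ighg1 was not analysed, so this sum, the gamma shares and the light-to-heavy ratios below leave it out. The share of Ighm was 0.139%, 71.2% and 96.6% in labelled knockouts (mean 56.0 ± 50), 13.1%, 50.1% and 80.4% in aged controls (mean 47.9 ± 33.7), and 98.6%, 71.0% and 69.7% in young controls (mean 79.7 ± 16.3; SD, n = 3 each). Among the heavy-chain genes analysed, Ighm led in 7 of the 9 libraries. The exceptions were labelled knockout 1, in which Ighg2c held 96.6%, and aged control 1, in which Ighg2c held 49.9% and Ighg2b 33.8%.

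The 3 gamma genes together held 96.7%, 27.8% and 3.39% in labelled knockouts, 86.2%, 48.4% and 19.4% in aged controls, and 0%, 3.61% and 21.1% in young controls. The lowest aged control was thus below the highest young control. The make-up of the gamma share also differed. Ighg2c held 1.22% in labelled knockout 2 and 0.00201% in labelled knockout 3, against 21.6% in aged control 2 and 13.3% in aged control 3. In young control 3 nearly all of the gamma share was Ighg2b, at 21.0%. Igha held 3.17%, 0.781% and 0.00255% in labelled knockouts, 0.726%, 1.5% and 0.108% in aged controls, and 0.631%, 25.4% and 9.17% in young controls.

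**Figure D2:**
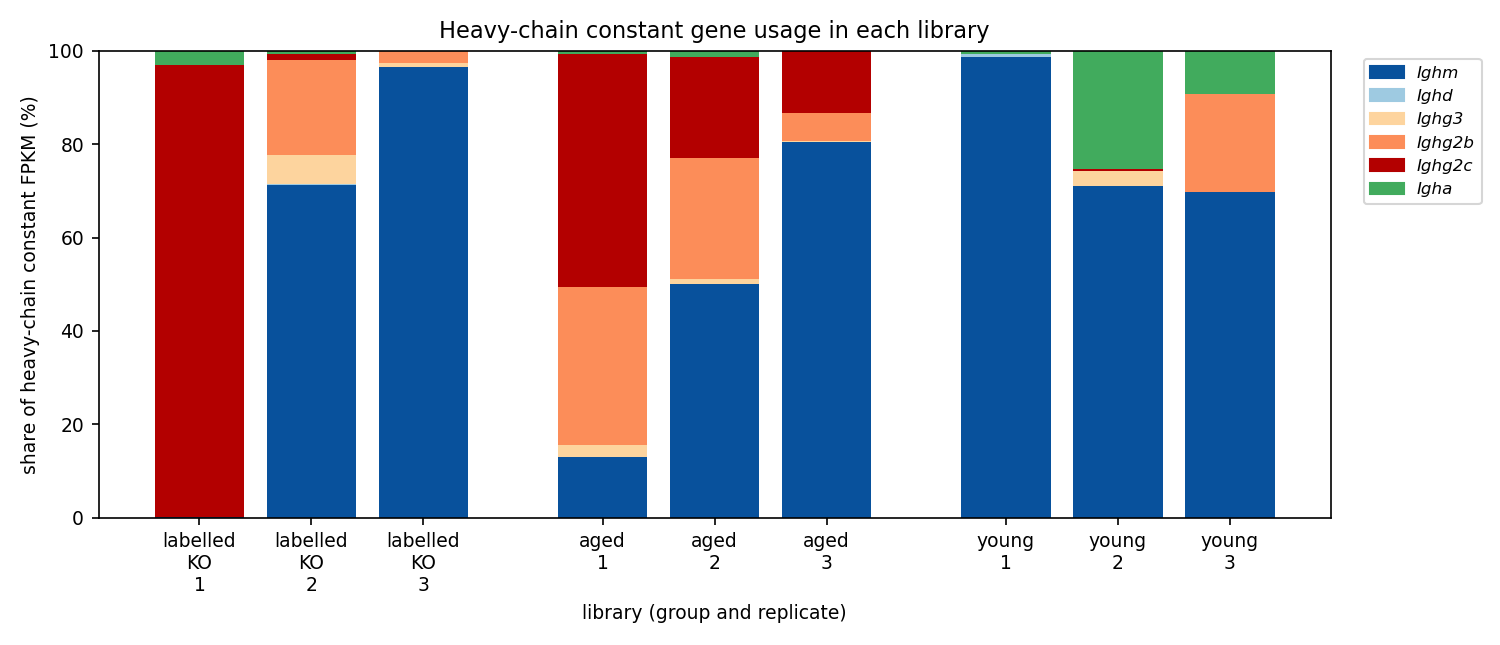
Share of each heavy-chain constant gene in the summed heavy-chain constant FPKM of each library, in percent, 1 bar per library. Ighg1 is not in the sum. Ighm runs from 0.139% in labelled knockout 1 to 98.6% in young control 1, and each group holds libraries of unlike make-up.

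These shares rest on very different amounts of RNA. The heavy-chain constant genes had an estimated 17226, 1299567 and 223193 reads in labelled knockouts, 2494914, 504361 and 2724529 reads in aged controls, and 235, 829 and 10634 reads in young controls, so the young shares are the least precise. They also rest on transcript length, and the sources used here do not state the length the authors divided by. With all annotated exon bases as the length, 99.2% to 100% of the low values used for depth came to whole reads. The annotated genes differ in it, with 2678 bases of exon in Ighg2b and 1326 in Ighg2c, and the longest annotated transcript has 2566 bases for Ighg2b and 1214 for Ighg2c. With the reads set over the short annotated transcript of each gene instead, an alternative chosen after seeing the data, Ighg2b held 49.3% and Ighg2c 36.1% in aged control 1, the opposite order to that by FPKM. Which of Ighg2b and Ighg2c was the more abundant in that library therefore depends on the length used.

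Kappa held nearly all of the light-chain FPKM in every library. Igkc made up 99.3%, 99.2% and 99.6% of the light-chain constant FPKM in labelled knockouts, 99.1%, 99.2% and 99.1% in aged controls, and 94.8%, 98.5% and 98.8% in young controls. Young control 1, the lowest, had 34.83 FPKM of Igkc, the least of any library. Between the lambda genes, the ratio of Iglc1 to Iglc2 was 0.0225, 0.552 and 0.0987 in labelled knockouts, 0.522, 1.05 and 0.0231 in aged controls, and 0.536, 0.248 and 0.124 in young controls, with overlap between all groups. By estimated reads, the ratio in aged control 2 was 0.778, so which gene led there depends on the length used. Set against the heavy chain, the summed light-chain FPKM was 2.21, 6.94 and 3.63 times the summed heavy-chain FPKM in labelled knockouts, 3.46, 3.60 and 3.02 times in aged controls, and 5.80, 3.74 and 5.82 times in young controls. This ratio also depends on length: by estimated reads, without division by length, it was 0.858, 1.77 and 1.01 in labelled knockouts, 0.97, 0.962 and 0.863 in aged controls, and 1.63, 0.947 and 1.46 in young controls.

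Ighe, which gives IgE and is not among the 9, was listed at 106.89, 8.40 and 10.18 FPKM in aged controls, an estimated 4408, 366 and 335 reads. It was listed at 0 in all 3 labelled knockouts, where 3 reads would give 0.0727 to 0.104 FPKM, and at 0 in all 3 young controls, where they would give 0.0965 to 0.106 FPKM. Iglc3, the near copy of Iglc2, had 1.52, 369.99 and 29.01 FPKM in labelled knockouts, 202.98, 93.08 and 231.23 FPKM in aged controls, and 0.00, 0.00 and 3.39 FPKM in young controls.

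Over the 9 libraries the constant genes did not all follow each other alike. Pearson's r between their log2(FPKM + 1) values ran from 0.522 for Ighm with Ighg2c and 0.571 for Ighm with Igha to 0.979 for Igkc with Iglc2. The points share the group structure and the scaling of each library, and the values are a description. Among the genes outside the immunoglobulin loci, the one most like Igkc was Jchain, at r = 0.99, which encodes the chain that joins IgM and IgA into polymers. It had 11.79, 964.01 and 206.08 FPKM in labelled knockouts, 1103.57, 390.70 and 936.82 FPKM in aged controls, and 2.76, 2.98 and 35.41 FPKM in young controls. Ordered by Jchain, the libraries took the same places as by Igkc except at the top, where aged control 1 stood above labelled knockout 2 and aged control 3.

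The next genes most like Igkc were Ly6c2 (r = 0.989) and Ly6d (r = 0.979), which encode lipid-anchored surface proteins of blood cells. They were followed by Ctss (r = 0.978), a lysosomal protease of antigen-presenting cells, and Cd52 (r = 0.974), a short glycoprotein of the leukocyte surface. Slpi (r = 0.969) encodes a secreted protease inhibitor, Cd74 (r = 0.969) the invariant chain of MHC class II, and Ly6a (r = 0.968) the surface antigen Sca-1. Ly6d, for one, had 2.47, 864.26 and 88.32 FPKM in labelled knockouts, 737.14, 93.36 and 819.56 FPKM in aged controls, and 0.27, 0.30 and 3.98 FPKM in young controls. The genes most like Ighm were Cd52 (r = 0.952), Ly6c2 (r = 0.943) and the cytokine gene Il10 (r = 0.941). Those most like Ighg2b were Jchain (r = 0.98), Cd52 (r = 0.974) and Ly6c2 (r = 0.965). Igha had another set: the transcription factor genes Etv3 (r = 0.935) and Arid3a (r = 0.929) and the kinase gene Map3k1 (r = 0.934), which varied over a narrow range, with Etv3 between 1.62 and 4.72 FPKM.

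**Figure D3:**
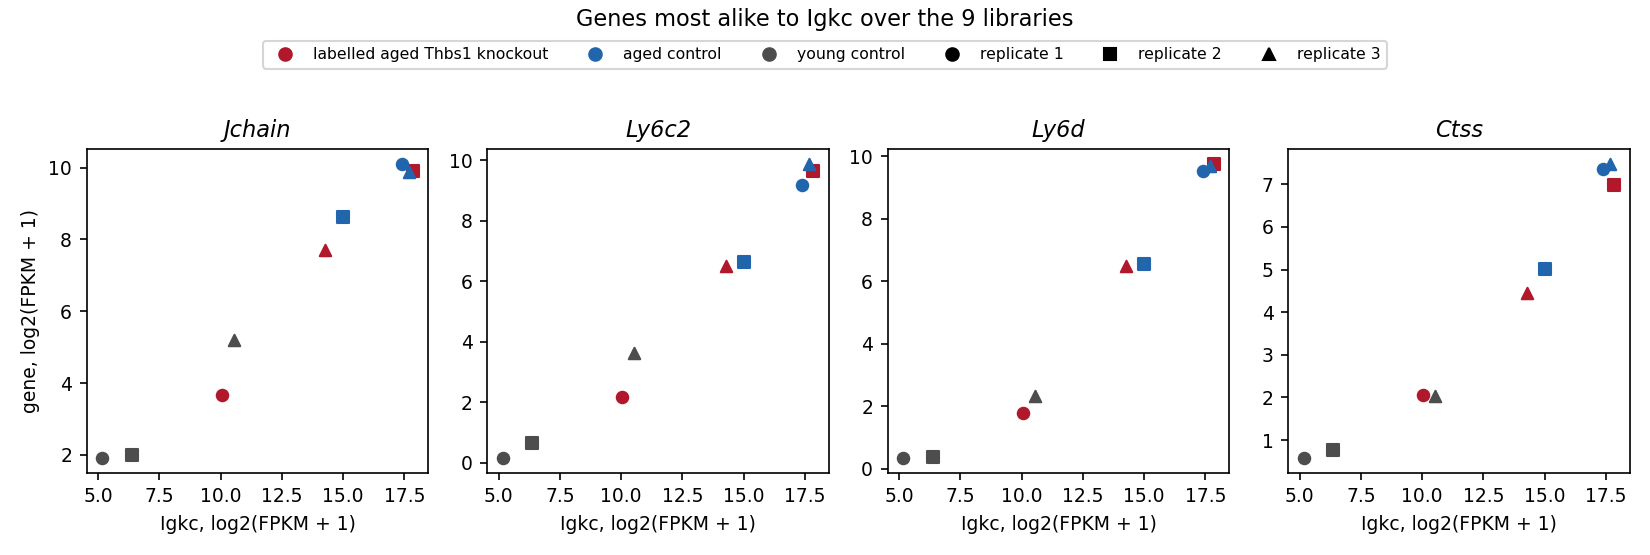
Levels of the 4 genes outside the immunoglobulin loci most like Igkc against Igkc, each as log2(FPKM + 1), with colour for the group and shape for the replicate number. Labelled knockout 2 lies with aged controls 1 and 3, labelled knockout 3 near aged control 2, and labelled knockout 1 near young control 3.

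Genes of antibody-making cells, of class switching and of antibody receptors were followed by lists. These lists were themselves drawn up with earlier results of these data known and are no independent evidence of a direction. Of 20 plasma cell genes, all tested, 9 rose in aged controls against young controls, none fell and 11 did not pass, with a median log2 difference of 2.70 against -0.28 over all genes tested. In this fit 4.04% of all genes passed in either direction and 2.57% as higher. Mzb1, a chaperone partner in antibody assembly, had 28.10, 5.64 and 44.77 FPKM in aged controls, against 0.00, 0.06 and 0.00 FPKM in young controls (log2 difference 4.34, SE 0.62, limma adjusted p = 0.0112). Pou2af1, a coactivator at octamer sites of antibody genes, had 104.56, 21.15 and 131.56 FPKM in aged controls, against 0.32, 0.18 and 0.24 FPKM in young controls (log2 difference 5.76, adjusted p = 0.031). Jchain rose by 6.50 (SE 1.44, adjusted p = 0.0413). Irf4, a transcription factor of plasma cells, rose by 3.81 (adjusted p = 0.0293), the kinase gene Pim2 by 1.68 (adjusted p = 0.0197) and Edem1, which helps discard misfolded proteins, by 3.05 (adjusted p = 0.0337).

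Of 16 B lineage genes, 6 were tested and 4 of them rose, with a median log2 difference of 3.74. Cd79a, the signalling chain of the B cell receptor, had 43.16, 12.24 and 27.02 FPKM in aged controls, against 0.32, 0.43 and 0.46 FPKM in young controls (log2 difference 4.18, adjusted p = 0.013). The kinase gene Btk rose by 3.35 (adjusted p = 0.0123), the adaptor gene Blnk by 2.84 (adjusted p = 0.0293) and Ms4a1, which encodes CD20, by 2.39 (adjusted p = 0.0449). Btk was under 1 FPKM in every library outside the aged controls and reached the filter through them alone. Pax5, the factor that holds B cell identity, was at 0.02 FPKM or less in every library. Of 8 genes of B cell precursors, 1 was tested, Vpreb3, at a log2 difference of 2.68 that did not pass (adjusted p = 0.201).

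Of 12 genes for class switching and antibody receptors, 5 were tested and 1 rose. That was Fcgr3, a receptor for IgG on myeloid cells, at 89.81, 103.71 and 6.44 FPKM in aged controls, against 0.91, 0.42 and 0.53 FPKM in young controls (log2 difference 4.69, adjusted p = 0.023). Fcgr3 was under 1 FPKM in every library outside the aged controls, so it reached the filter through their levels alone. Without a filter it did not pass (limma adjusted p = 0.0652). Fcgrt, the receptor that recycles IgG, had a log2 difference of -0.92 that did not pass (adjusted p = 0.132). Pigr, which carries IgA across epithelia, was at 0.11 FPKM or less in every library.

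These 14 calls over the lists rest on few libraries. Of the 14 genes, 12 reached the filter on low values only with the help of the aged controls, where they are high, and Btk and Fcgr3 were under 1 FPKM in every other library. Without a filter 3 of the 14 passed, Mzb1 (adjusted p = 0.0424), Cd79a (adjusted p = 0.0444) and Btk (adjusted p = 0.0443). Without aged control 1, or without any 1 of the young controls, none passed by limma. Btk and Fcgr3 missed the filter, and were not tested, when any 1 of the aged controls was left out. Without aged control 3 the count was 3, without labelled knockout 3 it was 9, and without labelled knockout 2, which adds to the shared spread, it was 26.

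In labelled knockouts against aged controls 3 of the 20 plasma cell genes fell, none rose and 17 did not pass, with a median log2 difference of -1.69 against 0.07 over all genes tested, of which 3.48% passed and 1.96% fell. Mzb1 had 0.08, 0.00 and 1.03 FPKM in labelled knockouts, against 28.10, 5.64 and 44.77 FPKM in aged controls (log2 difference -3.99, SE 0.62, limma adjusted p = 0.019). It was thus listed at 0 in labelled knockout 2, the library with the most Igkc of all. Pim2 fell by 1.69 (adjusted p = 0.0239) and Hsp90b1, the chaperone Grp94 of the endoplasmic reticulum, fell by 1.40 (adjusted p = 0.0474) on the log2 scale. The call of Hsp90b1 was lost in 8 of the 9 fits without 1 library, that of Pim2 in 4 and that of Mzb1 in 2. Jchain, with a log2 difference of -2.44, did not pass (adjusted p = 0.384).

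Of the 6 B lineage genes tested, Btk fell, at 0.04, 0.00 and 0.06 FPKM in labelled knockouts, against 18.78, 20.00 and 3.89 FPKM in aged controls (log2 difference -3.62, SE 0.49, adjusted p = 0.00969). Among the aged controls Btk took the order of Fcgr3, the receptor gene of myeloid cells, and the reverse of the order of Igkc. Cd79a (log2 difference -2.37, adjusted p = 0.078) and Ms4a1 (log2 difference -2.04, adjusted p = 0.0814) lay lower without overlap and did not pass. Fcgr3 fell by 5.22 (adjusted p = 0.0212), with 0.00, 0.00 and 0.38 FPKM in labelled knockouts, and Fcgrt had a log2 difference of 0.51 (adjusted p = 0.401). Of these 5 genes, all but Hsp90b1 reached the filter only with the help of the aged controls, and without a filter 1 passed, Btk (adjusted p = 0.0407). Over the lists this count of 5 was 23 without labelled knockout 2 and 3 without labelled knockout 3. It was 2 without aged control 3 or young control 3, 1 without aged control 2 or labelled knockout 1, and 0 without aged control 1. Btk and Fcgr3 missed the filter, and were not tested, when any 1 of the aged controls was left out. In the 6 fits that tested them, the call of Btk was lost in 0 and that of Fcgr3 in 3. Against young controls, none of the 32 genes tested passed in labelled knockouts by limma, where 0.025% of all genes did. An unadjusted p under 0.05 was reached by 5, all as higher, Jchain (log2 difference 4.07, adjusted p = 0.496) and Cd79a (1.81, adjusted p = 0.481) among them.

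**Figure D4:**
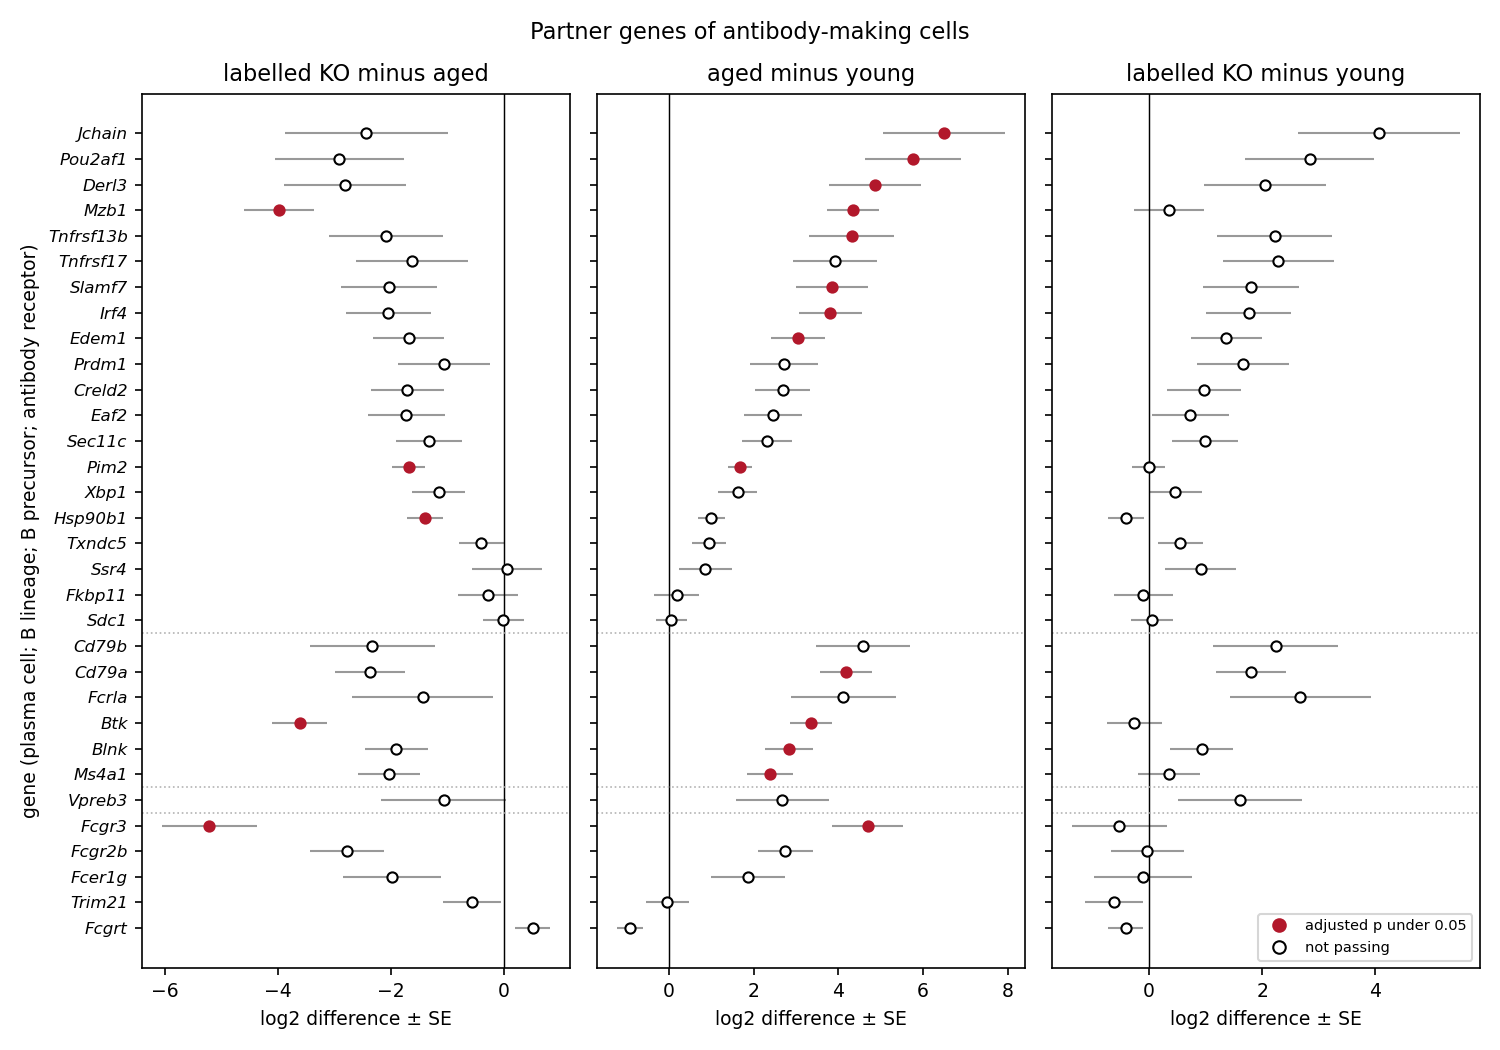
Log2 difference with its SE for each tested gene of the plasma cell, B lineage, B precursor and antibody receptor lists, in each of 3 comparisons, with filled points for an adjusted p under 0.05. In aged minus young 14 of 32 points are filled, all above 0. In labelled KO (knockout) minus aged 5 are filled, all below 0, and in labelled KO minus young none is. Btk and Fcgr3 reached the filter on low values through the aged controls alone.

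Markers of leukocytes and of the B lineage also had their highest summed levels in aged controls. The summed level of 10 pan-leukocyte genes was 6.26, 614 and 108 FPKM in labelled knockouts, 1682, 1792 and 595 FPKM in aged controls, and 8.40, 11.9 and 28.6 FPKM in young controls. Among the aged controls its order was not that of the constant genes, which took the smallest share of reads in aged control 2 and the largest in aged control 3. In labelled knockout 2 most of the sum was Cd52, at 544.91 FPKM, while Lcp1, an actin-bundling protein of leukocytes, had 0.74 FPKM there, against 116.91 FPKM in aged control 2. The 16 B lineage genes summed to 2.10 to 125 FPKM in labelled knockouts, 55.1 to 185 FPKM in aged controls and 2.13 to 2.51 FPKM in young controls. The 20 plasma cell genes summed to 710 to 2309 FPKM in labelled knockouts, 1294 to 4431 FPKM in aged controls and 651 to 713 FPKM in young controls. The plasma cell sum includes Sdc1, Xbp1 and chaperone genes that stromal cells also express. In labelled knockout 2, 9 of the 16 B lineage genes were listed at 0, Cd22, Pax5 and Btk among them, while its constant genes took an estimated 19.8% of reads. The 4 T cell markers found summed to at most 0.97 FPKM in any library. The 6 neutrophil markers summed to 24.3, 47.3 and 52.7 FPKM in labelled knockouts, 217, 24.5 and 229 FPKM in aged controls, and 115, 168 and 285 FPKM in young controls. Within the aged and the young controls this sum took the order of the constant genes' share of reads, while the ranges of both groups overlapped. Within the labelled knockouts it did not: labelled knockout 3 had the highest sum and labelled knockout 2 the largest share. What part cells other than stromal cells had in the levels of the constant genes was not tested.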

How the data were processed

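RNA was measured in 9 libraries of sorted marrow stromal cells, each from 2 ng of RNA by the SMART-Seq v4 kit, per the labels' protocols. The deposited table gives FPKM per gene, rounded to 2 decimals, per the file headers and values. The submitters' processing notes list GRCm38 (mm10) as the build, with edgeR, STAR and FastQC 0.11.5 as tools. Not given in the sources used here were the annotation, gene lengths, counter, use of strand and handling of reads with several matches. Because FPKM is relative to a library's total, a few abundant genes lower all others.

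The genotype label gave the groups, and titles matched the columns. Symbols were matched to GENCODE M21, with a single model for 30128 of 30579 genes (98.5%). Depth came from the steps of low FPKM values times gene length, at which 99.2% to 100% of them came to whole reads, with a tolerance of 0.1 read. Reads per gene are estimates from FPKM, length and this depth, and read shares so estimated summed to 103% to 106% over all genes. Isotype shares divide a gene's FPKM by the sum of the analysed genes of its chain, without Ighg1.

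limma 3.58.1 in R 4.3.3 was fitted to log2(FPKM + 1), with an intensity trend and no covariate, over all 9 libraries and the 11988 genes with at least 1 FPKM in at least 3 libraries. Benjamini-Hochberg adjustment ran over these genes, with a threshold of 0.05. The log2 scale with a pseudocount understates changes of low genes. The fit was tried on simulated data without the filter on low values, with changes planted only in genes of higher mean level. That trial therefore does not cover changes in genes near 0. The constant genes and the gene lists were chosen with earlier results of these data known. The rule for named genes took all constant genes, listed genes that passed (up to 6 per list) with Jchain, Mzb1, Cd79a, Ms4a1, Pigr and Fcgrt, the 8 genes most like Igkc and the 3 most like Ighm, Igha and Ighg2b. Pax5, Sdc1, Xbp1, Cd22, Lcp1 and Vpreb3 were named after their values were seen. A few further genes of the rule are not reported here. As alternatives, the fit was repeated without a filter, with at least 5 FPKM, at a pseudocount of 0.1, after median-ratio rescaling, without immunoglobulin genes, on the compared groups alone, with a replicate block and without each library, and the shares were recomputed with other denominators and lengths. Python 3.11.15, numpy 2.4.6, pandas 2.3.3, Biopython 1.88 and matplotlib 3.10.9 were used.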

Additional observations from a re-analysis of the deposited data

How the results depend on the processing

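Between labelled knockouts and aged controls, 417 genes passed over the whole table, and the count was 92 without a filter on low values, 199 with a minimum of 5 FPKM, 14 with the compared groups alone and 13 to 1895 with 1 library left out. Of the listed genes, which include antibody receptors such as Fcgr3, 5 passed. The count was 3 with a pseudocount of 0.1, 1 without a filter, 2 with a minimum of 5 FPKM and 0 with the compared groups alone. With 1 library left out it was 0 to 23. Between aged and young controls, 484 genes passed, 138 without a filter, 2155 with the compared groups alone and 4 to 2729 with 1 library left out. The 14 listed genes became 3 without a filter, 25 with the compared groups alone and 0 to 26 with 1 library left out. Between labelled knockouts and young controls 3 genes passed, 2 to 37 with 1 library left out, and no listed gene passed under any alternative. Replicate numbers did not pair the libraries: deviations of same-numbered libraries correlated at -0.29 to 0.30, with 1 of 9 pairs over 0.1. With the replicate number as a block, 64 genes passed in labelled knockouts against aged controls (2 listed genes). In the same fit 120 passed in aged against young controls (3 listed genes) and 2 in labelled knockouts against young controls (0 listed genes).

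Of 216 alternative values of the log2 differences of constant genes, 2 changed sign and 3 others moved by more than the spread between libraries. With 3 libraries a group, leaving 1 out cannot move a difference by more than that spread. Among the other 211 values, those with 1 library left out are therefore no measure of stability. The rest came from a pseudocount of 0.1 or from median-ratio rescaling. Over single omissions the difference of Ighm in labelled knockouts against aged controls ran from -7.0 to -0.08. Ighg3 turned in labelled knockouts against aged controls, at 0.09 without labelled knockout 1 (-5.28 to 0.09 over single omissions). Igha turned in labelled knockouts against young controls, at -0.36 without labelled knockout 2 (-0.36 to 3.58). With 1 library left out, the mean Ighm share was 35.7% to 83.9% in labelled knockouts, 31.6% to 65.3% in aged controls and 70.3% to 84.8% in young controls. The mean kappa share in aged controls was 99.0% with all constant genes in the denominator, and 99.0% over short transcripts. The cause of these changes was not tested. Depth limits the young shares most, and a level under 0.0546 to 0.0844 FPKM for a 2 kb gene rests on fewer than 3 reads, which covers counting error only.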

Other observations

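The variable genes that the constant genes are spliced to were dominated by single genes in some libraries. In labelled knockout 1, Igkv9-120 held 94% of the summed FPKM of the 136 kappa variable genes, and Ighv9-3 held 99.9% of that of the 76 heavy-chain variable genes. In aged control 3, Igkv15-103 held 70.7% and Ighv7-1 86.1%. In aged control 2, the leading genes held 15.8% (Igkv15-103) and 19.9% (Ighv11-2). In young control 3, Igkv15-103 held 64.3% and Ighv7-1 97.1%. These genes are families of close copies, so the split of reads between them is uncertain.

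The variable genes also stood in very different proportion to the constant genes. The summed kappa variable FPKM was 80.5%, 1.15% and 47.9% of Igkc in labelled knockouts, 47.6%, 56.4% and 75.1% in aged controls, and 62.7%, 45.4% and 71.0% in young controls. For the heavy chain, variable FPKM was 97.7%, 0.439% and 7.92% of constant FPKM in labelled knockouts, 10.4%, 36.4% and 95.1% in aged controls, and 26.8%, 38.1% and 67.6% in young controls. The heavy-chain constant sum does not include Ighg1. Labelled knockout 2 was the lowest by both measures, with the most Igkc of any library.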
